A study of Caenorhabditis elegans with 2 samples.

Results

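Binding of XND-1, a chromatin protein of the Caenorhabditis elegans germline, is described here at 10 genes: him-8, zim-1, zim-2, zim-3, chk-2, plk-2, pch-2, sun-1, zyg-12 and prom-1. They were chosen by name as genes of homolog pairing and of the surveillance of meiotic chromosomes, and are 10 of the 19973 protein-coding genes annotated on the 6 nuclear chromosomes. Binding was mapped by chromatin immunoprecipitation and sequencing (ChIP-seq) with an antibody to GFP, in worms of strain QP0661 that stably express XND-1 with GFP and FLAG at its C terminus. The single group held 2 biological replicates made from whole young adult hermaphrodites, 50 h after synchronization by bleaching and L1 starvation. All worms carried the tag and no untagged or untreated group was compared. Whole animals were used, so binding in the germline and in somatic cells cannot be told apart. A gene is called bound where the summit of a peak lay in its promoter window, taken from 500 bp before to 200 bp after any 5′ end of its protein-coding transcripts (WBcel235, the ce11 build, with annotation release 115).

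Before homologous chromosomes can recombine in worm meiosis, each must find its partner. Zinc-finger proteins (HIM-8 and the ZIM proteins) load on a special region near an end of each chromosome, the pairing centre, and draw in the kinases CHK-2 and PLK-2. The pairing centre is held at the nuclear envelope by SUN-1 in the inner membrane and ZYG-12 in the outer membrane, which connects to dynein and moves the chromosome ends. PCH-2 is a remodelling ATPase of the meiotic axis that acts in the synapsis checkpoint, and PROM-1 is an F-box protein that directs a ubiquitin ligase at meiotic entry.

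XND-1 bound 7 of the 10 genes in the IDR-thresholded list: chk-2, plk-2, pch-2, sun-1, zyg-12, prom-1 and zim-1. The authors derived that list from both replicates by the irreproducible discovery rate (IDR). Among all protein-coding genes 6.68% were bound by the same rule. The other 3 genes, him-8, zim-2 and zim-3, were not bound, and all 3 lie downstream of zim-1 in 1 cluster. No test was made of the count, because the genes were chosen with results of these data known.

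The sequences under 6 summits are shown because they differ in how many of the words common at XND-1 peaks they hold, from all 10 to none. The summits of plk-2 and prom-1, which held 4 and 3 of these words, are not printed. Each is read 5′ to 3′ on the strand of its gene, within 50 bp of the summit, from the RefSeq assembly WBcel235. Capitals mark the 10 words of 6 bases, on either strand, whose excess at summits over sequence 300 bp away was largest among all other IDR-thresholded peaks. The first 5 are IDR-thresholded summits. They lie at chrIV:10546723-10546823 (zim-1, plus strand), chrV:13193802-13193902 (sun-1, minus), chrV:19916150-19916250 (chk-2, minus), chrII:8158135-8158235 (pch-2, plus) and chrII:4949528-4949612 (zyg-12, plus, cut short where the transcript of the neighbour try-1 begins). The last is the pooled summit of zim-3 that missed the IDR list, at chrIV:10558472-10558572 (plus).
zim-1: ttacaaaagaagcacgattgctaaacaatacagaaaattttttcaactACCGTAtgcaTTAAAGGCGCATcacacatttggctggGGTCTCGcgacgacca
sun-1: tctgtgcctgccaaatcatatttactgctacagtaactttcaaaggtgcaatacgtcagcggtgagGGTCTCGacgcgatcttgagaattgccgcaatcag
chk-2: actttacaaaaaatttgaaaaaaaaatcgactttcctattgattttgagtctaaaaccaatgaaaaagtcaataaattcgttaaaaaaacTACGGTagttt
pch-2: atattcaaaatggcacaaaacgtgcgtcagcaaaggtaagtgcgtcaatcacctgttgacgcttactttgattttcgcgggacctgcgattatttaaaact
zyg-12: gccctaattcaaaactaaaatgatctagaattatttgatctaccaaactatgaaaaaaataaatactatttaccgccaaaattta
zim-3: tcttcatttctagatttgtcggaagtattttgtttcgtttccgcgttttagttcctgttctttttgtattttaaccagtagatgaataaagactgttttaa

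There were 1841 peaks in the IDR-thresholded list. The looser lists were far longer, with 24467 peaks from the pooled replicates, 22772 from replicate 1 and 22364 from replicate 2. Their deposited names call them peaks and background used as input for IDR, so they also hold background. Each peak carries a score from the authors' caller, which has no stated unit. A score is therefore read within its own list, together with its rank, where 1 is the highest. Scores in the IDR-thresholded list ran from 65.6 to 2548 with a median of 128. Each bound gene of the 10 had its peak at the same score and rank in this list and in the pooled list. A place in the list is therefore not read here as reproducibility of that single peak, and the ranks in both replicates are given. Read depth is unknown, since peak lists hold no read counts.

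Among the kinases and the genes of surveillance, chk-2 had the strongest peak of all 10 genes. CHK-2 is the kinase that starts pairing and break formation at meiotic entry. Its summit, at V:19916200, lay 177 bp upstream of the 5′ end, with a score of 531 and rank 186 in the pooled list. Replicate 1 gave a score of 261 and rank 175, and replicate 2 gave 272 and rank 190. Both replicates thus placed it near the same rank, with summits 17 bp apart. Of the 1334 bound genes, 87.6% had a lower best score than chk-2. The same summit lay 355 bp upstream of Y60A3A.19 on the opposite strand, so that 1 peak counts for both genes. The body of chk-2, 7938 bp long, held 7 weak summits in the pooled list, the highest at 35.3, below the lowest IDR-thresholded score. That is 0.882 per kb, against a mean of 0.288 and a median of 0 over all genes. Among the 10 genes the figure ran from 0 at him-8 and sun-1 to 1.13 at plk-2. Summits this weak may be background. In the cluster of zim-1, pooled summits with scores of 33 and 24.1 had deposited −log10 q values of only 1.37 and 0.524. Binding in the gene body is therefore not read from these densities.

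The polo-like kinase gene plk-2 was bound at the far edge of its window. PLK-2 is recruited to pairing centres, where it promotes pairing and synapsis. Its summit, at I:2758698, lay 494 bp upstream, with a score of 129 and rank 910 in the pooled list, a score of 57.9 and rank 1039 in replicate 1, and a score of 71 and rank 849 in replicate 2. The replicates' summits were 4 bp apart. Only 4.57% of all bound genes had their nearest summit more than 450 bp upstream. The upstream neighbour Y71F9B.9, on the same strand, ends 818 bp away. A stronger peak lay beyond the other end of plk-2: its summit, at I:2754894, was 646 bp past the 3′ end and had a pooled score of 337 (rank 334), against ranks of 331 and 345 in the lists of replicates 1 and 2. A further IDR-thresholded summit lay 441 bp past the 3′ end, with a score of 113. Neither of these summits fell inside a protein-coding gene. Of protein-coding genes plk-2 had the nearest 5′ end to both, 3310 bp and 3105 bp away, and non-coding genes were not searched.

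The F-box gene prom-1 was bound 184 bp upstream of its first 5′ end, at I:9287259. The pooled score was 234 (rank 515), with 108 (rank 571) in replicate 1 and 126 (rank 490) in replicate 2. All 3 ranks were well inside the first 1841. A second annotated 5′ end of prom-1, inside the gene, had only weak summits, with a pooled score of 17.6 and rank 14568.

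The checkpoint ATPase gene pch-2 had the weakest peak of the 7. Its summit lay 164 bp upstream, at II:8158185, with a pooled score of 75.2 and rank 1597. Replicate 2 gave a score of 47.5 and rank 1321, but replicate 1 gave 29.3 and rank 2257, outside its first 1841 peaks. The replicates' summits were 3 bp apart, so they differed in rank and not in place. The upstream gene tmem-138 is on the same strand and ends 307 bp before pch-2, and the summit lay between the genes.

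Both genes of the nuclear envelope bridge were bound. At sun-1 the summit, at V:13193852, lay 314 bp upstream, with a pooled score of 433 and rank 244. Replicate 1 gave a score of 225 and rank 235, and replicate 2 gave 207 and rank 273. This is the second highest score among the 10 genes, and the replicates' summits lay 3 bp apart. The summit sits in the 389 bp between sun-1 and F57B1.1, which runs in the same direction and ends there. A weaker pooled peak, with a score of 61.3 and rank 2010, lay 43 bp past the 3′ end of sun-1 and missed the IDR-thresholded list.

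At zyg-12 the summit, at II:4949562, lay 338 bp upstream, with a pooled score of 120 (rank 986), 46.9 (rank 1292) in replicate 1 and 71.5 (rank 845) in replicate 2. This summit was far closer to another gene: it lay 35 bp upstream of try-1, on the opposite strand. Nearer to zyg-12, 139 bp upstream, was a second pooled summit with a score of 38.6 and rank 3578, which is not in the IDR-thresholded list. Its ranks in replicates 1 and 2, 7359 and 20353, were far down both lists. The peak counted for zyg-12 is thus the one beside try-1.

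**Figure D1:**
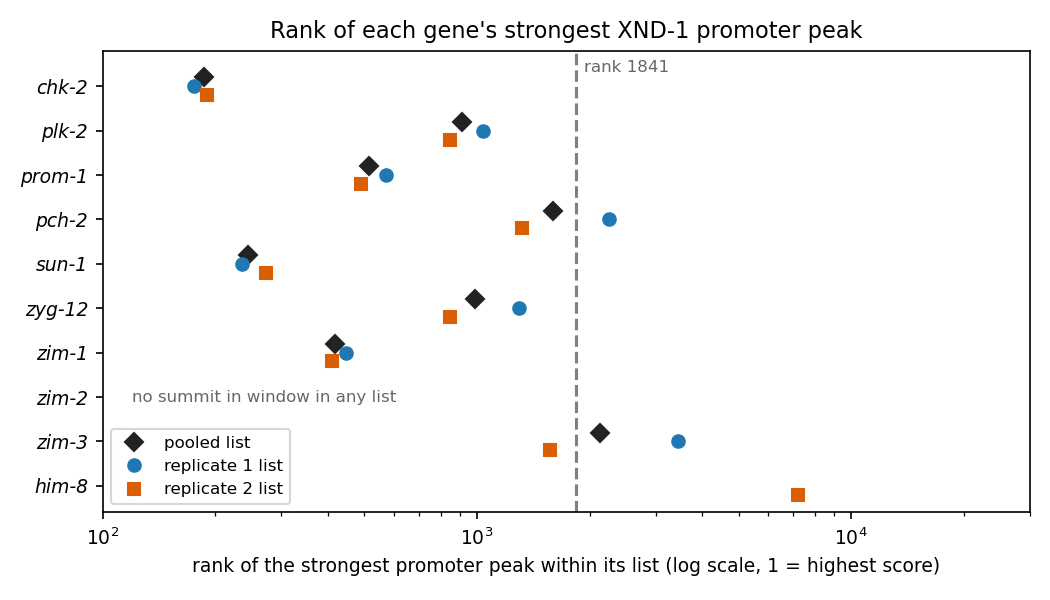
Rank of the strongest peak in the promoter window of each gene (horizontal log axis, 1 is the highest score) in the pooled list and in the lists of replicates 1 and 2, with a dashed line at rank 1841. For chk-2, sun-1, prom-1 and zim-1 the 3 ranks lie close together, whereas pch-2 and zim-3 lie on both sides of the line. At him-8 only replicate 2 has a summit inside the window, at rank 7192.

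The zinc-finger genes gave the sharpest contrast. They lie in 1 cluster of 16889 bp on chromosome IV, all on the plus strand, in the order zim-1, zim-2, zim-3 and him-8. ZIM-1, ZIM-2 and ZIM-3 mark the pairing centres of autosomes and HIM-8 that of the X chromosome. Only zim-1, the first in the direction of transcription, was bound. Its summit lay at IV:10546773, 313 bp upstream, with a pooled score of 276 and rank 417. Replicates 1 and 2 gave scores of 132 and 143 at ranks 448 and 409, with summits 6 bp apart.

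The peak of zim-3 came just short of the IDR-thresholded list. Its pooled score of 58.9 was 0.897 of the lowest score in that list, at rank 2129, with the summit 193 bp upstream at IV:10558522. Its deposited q value was identical to that of the 7 bound genes (−log10 q of 3.78). Their pooled scores ran from 75.2 to 531, so this value does not tell weak peaks from strong ones here. For zim-3, replicate 2 gave a score of 40.7 and rank 1565, but replicate 1 gave 21.7 and rank 3436. The replicates also placed its summits 124 bp apart, more than at any of the 7 bound genes, where the gap ran from 3 to 17 bp.

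No summit of any list fell in the window of zim-2. The nearest pooled summit lay 252 bp downstream of its second 5′ end, 52 bp outside the window, with a score of 24.1 and rank 7838. At him-8 the pooled list and replicate 1 had no summit in the window, and replicate 2 had 1, with a score of 14.9, rank 7192 and −log10 q of 0.599. The nearest pooled summit lay 622 bp upstream, with a score of 23.7. In replicate 1 the nearest lay 681 bp upstream, with a score of 17 and rank 5092. For both genes the closest IDR-thresholded summit was the one at zim-1, 8474 bp and 15132 bp away from their first 5′ ends.

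**Figure D2:**
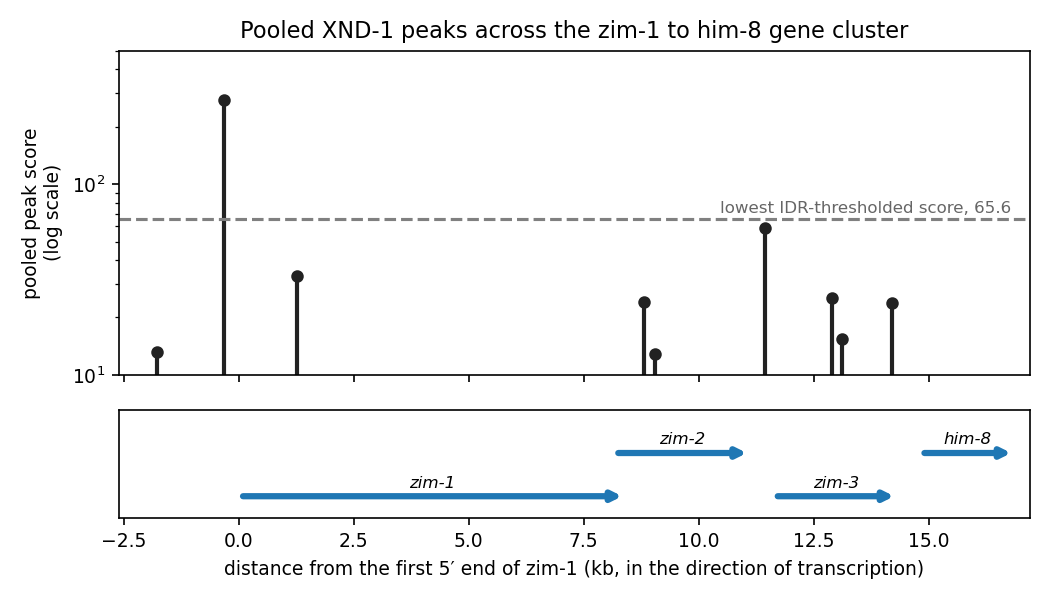
Pooled XND-1 peak scores (vertical log axis) against the distance from the first 5′ end of zim-1 in kb, with the 4 genes of the cluster drawn as arrows and a dashed line at the lowest IDR-thresholded score, 65.6. The peak ahead of zim-1, at 276, is the only one above the line, and the next highest, ahead of zim-3, is at 58.9.

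The loose lists add little to this picture, because they hold many weak peaks. In the pooled list 8 of the 10 genes had a summit in the window, against 27.7% of all protein-coding genes, in the list of replicate 1 again 8 (27.3% of all genes), and in that of replicate 2 it was 9 (25.6%). With each replicate cut at its 1841 highest peaks, replicate 1 alone bound 6 of the 10 (6.67% of all genes) and replicate 2 alone bound 8 (6.37%). The genes that differed were pch-2, absent from the first set, and zim-3, which with pch-2 was present in the second.

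Scores of the 7 bound genes ran from 75.2 to 531 with a median of 234, beside a median of 145 over all bound genes. Above that median were 4 of the 7, namely chk-2, sun-1, zim-1 and prom-1. Every one of the 7 summits lay upstream of its 5′ end, as did 90.7% of the nearest summits of all bound genes. They lay 164 to 494 bp upstream, with a median of 313 bp, and the median over all bound genes was 189 bp upstream. Summits fell 164 to 184 bp upstream at pch-2, chk-2 and prom-1, and 313 to 338 bp upstream at zim-1, sun-1 and zyg-12. None of the 10 gene bodies held an IDR-thresholded summit, and the share of all gene bodies that hold one was not counted.

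**Figure D3:**
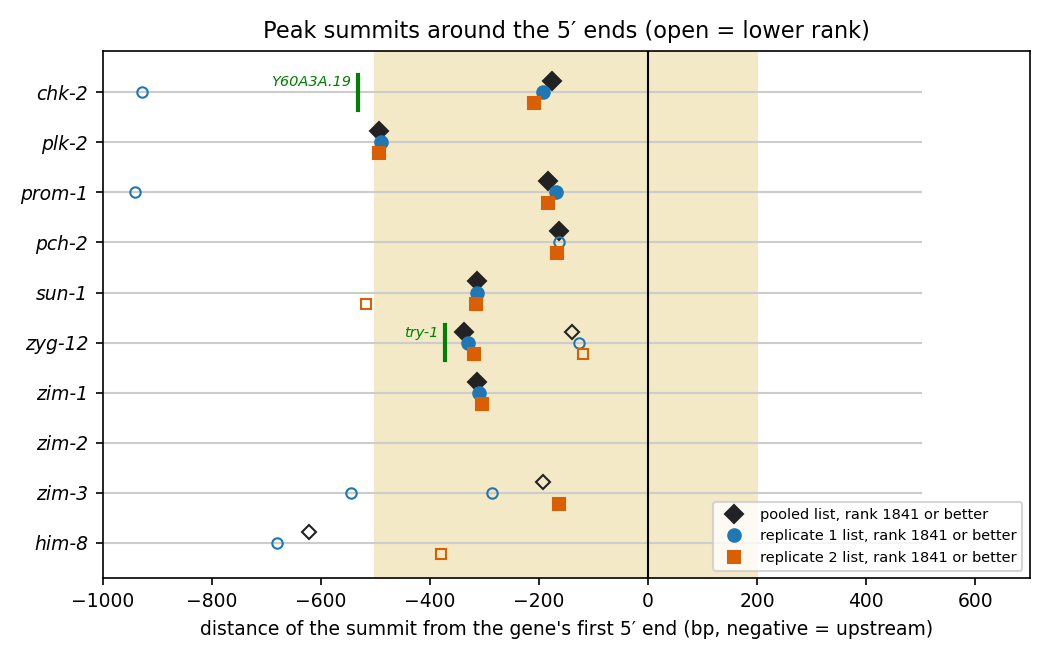
Distance of every peak summit from the first 5′ end of each gene (bp, negative is upstream) in the pooled, replicate 1 and replicate 2 lists, filled where the peak is among the first 1841 of its list and open otherwise. Shading marks the window and green bars the 5′ end of a gene that shares a summit. At each bound gene the symbols of the strongest peak lie close together in the 3 lists, at 164 to 494 bp upstream in the pooled list, and of these only the replicate 1 symbol of pch-2 is open.

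By gene arrangement, the 4 members whose nearest upstream neighbour runs on the opposite strand (zim-1, chk-2, zyg-12 and prom-1) were all bound, and 9.09% of the 9235 genes so arranged in the genome were. Of the 6 members behind a neighbour on the same strand, 3 were bound (plk-2, pch-2 and sun-1), against 4.61% of all such genes. The 3 unbound members all follow a same-strand neighbour closely: zim-2 overlaps zim-1, and the gaps ahead of zim-3 and him-8 are 489 and 475 bp. A short gap was also found ahead of the bound genes pch-2 and sun-1, and among all genes behind a same-strand neighbour that overlaps them or ends less than 500 bp away 6.7% were bound.

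In sequence the bound summits differed in how many of the leading words they held, though some words were shared. Within 50 bp of its summit zim-1 held all 10 of the leading words. The count was 4 at plk-2, 3 at prom-1, 2 at sun-1 and 1 at chk-2, and it was 0 at pch-2 and zyg-12. At least 1 of these words was found in 56.9% of all IDR-thresholded summit windows and in 23.5% of promoter sequences of the same length (101 bp), centred 200 bp upstream of the first 5′ end. At least 5 were found in 16.9% and 0.766%. The words were picked for their excess at IDR-thresholded summits, so higher shares there follow from the choice. The gene with the highest score, chk-2, thus held 1 word, and zim-1, with all 10, had the third highest score.

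Of the leading words, GAGACC was present at zim-1, plk-2, sun-1 and prom-1, in 21% of all IDR-thresholded windows and in 2.87% of promoters. At the same 4 summits stood the overlapping word CGAGAC, present in 19.2% of windows and 2.87% of promoters. The word ACCGTA was found at zim-1, chk-2 and plk-2, in 19% of windows and 3.19% of promoters. AGGCGC was found at zim-1 and plk-2, in 20.2% of windows and 2.05% of promoters. Words overlap, so that the longest run of capitals at zim-1 holds 7 of them.

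A further 6 words were searched on both strands. CGCGAA was found at pch-2 only, in 15% of all IDR-thresholded windows and in 2.25% of promoters. The word TTTCGC, which overlaps it, was also found at pch-2 only, in 19.8% of windows and 6.33% of promoters. A run of AAAAAA was found at zim-1, chk-2, plk-2 and zyg-12, and it is common, in 34.9% of windows and 45.7% of promoters. None of the 7 summits held GAGAGA, and the same was true of CCGCCC and of TATAAA. These words are in 7.66%, 3.31% and 7.01% of all IDR-thresholded windows and in 7.48%, 2.27% and 13.1% of promoters. At such shares their absence from 7 windows does not set these summits apart. The G+C content of the windows was 23.8% at chk-2 and 25.7% at zyg-12, from 41.6% to 49.5% at the other 5, and 41.6% at the median of all IDR-thresholded windows.

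The unbound genes were not free of the same words. In the full 701 bp window of the first 5′ end, him-8 held 4 of the 10 leading words, zim-2 held 3 and zim-3 held 2. Each of the 10 words was found in 10.9% to 44.9% of all promoter windows of that length, so such matches are common. Added over the 10 words, these shares put the average window close to the count of zim-3 and below those of zim-2 and him-8. The spread of the count over windows was not computed. The word GAGACC was in the windows of him-8 and zim-3 and is found in 16.9% of all promoter windows of that length. In the windows of zim-2 and zim-3 stood ACCGTA, found in 18.4% of all such windows. The word GGCGCA, found in 12.3% of them, was in that of zim-2 alone among the 3 genes. Only him-8 of the 3 held CCTTTA and CTTTAA, found in 22.4% and 44.9% of all such windows. None of the 10 leading words lay within 50 bp of the pooled summit of zim-3. These matches are descriptions of letters only.

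Of 53 other genes of pairing, synapsis, break formation and their surveillance, 18 were bound (34%), with scores from 71.6 to 1418 and a median of 172. The share among all protein-coding genes is the 6.68% given above. In the loose pooled list 38 of the 53 had a summit, against 27.7% of all genes. The 6 highest were nasp-2 (1418), a histone chaperone gene, dsb-2 (894), needed for meiotic breaks, syp-2 (492), of the synaptonemal complex, bub-3 (400), of the spindle checkpoint, spo-11 (360), the enzyme that makes the breaks, and plk-1 (349), the other polo-like kinase. By these scores chk-2 and sun-1 would stand after dsb-2 and on either side of syp-2. By role, 1 of 12 genes of envelope attachment and dynein was bound (mjl-1, with a score of 89 and a summit 51 bp upstream) and 0 of 4 other genes of the SCF ubiquitin ligase, the complex in which PROM-1 acts. Beside the 6.68% of all genes, neither count sets its group apart. Bound were also 6 of 15 genes of axis, cohesin and synapsis and 5 of 10 of break formation and processing. Of the checkpoint, kinase and phosphatase genes 5 of 11 were bound.

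**Figure D4:**
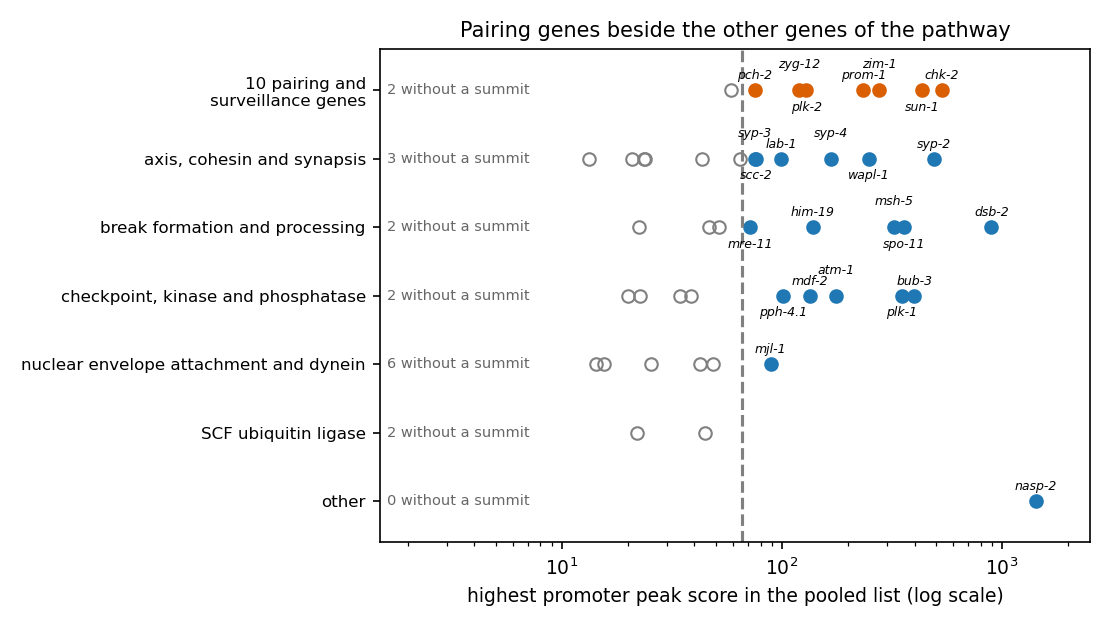
Highest promoter peak score in the pooled list (log axis) for the 10 genes, in orange, and for 53 other genes of the pathway by role, with a dashed line at the lowest IDR-thresholded score and open symbols below it. Above the line lie 7 of the 10 and 18 of the 53, and 6 of the 12 genes of envelope attachment and dynein have no summit.

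Among the 1320 bound genes with a score in all lists, those closest to chk-2 in log2 score over the pooled list and both replicates were Y60A3A.19, at a distance of 0, which shares its peak, and then puf-7 and snpc-3.1 (0.0325), which share a peak with each other. Their pooled score was 532, with 257 in replicate 1 and 277 in replicate 2. The likeness is one of peak height over 3 lists, of which the pooled list is made from the other two.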

How the data were processed

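The deposited lists are narrowPeak tables on ce11, whose positions fit the chromosome lengths of the WBcel235 genome used. Peaks were called with a control alignment for each replicate and for the pooled replicates, and the IDR-thresholded list was derived from those 3 lists, per the deposited README text. Aligner, caller and IDR cut-off are not given in the sources used here. Per the deposited files, column 7 is a score with no unit and column 9 the −log10 q value. The control alignment was not used here.

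Summits (start plus column 10, written 1-based) were assigned to every protein-coding gene whose promoter window held them. Per the labels the 2 replicates are biological ones, and no statistical test was made. The 10 genes and the pathway list were chosen with earlier results of these data known, and the leading words after the data were examined. All 10 genes are named, with the genes that share a summit with one of them, the 6 pathway genes with the highest scores and the 3 bound genes nearest to chk-2 in log2 score. The gene mjl-1 and the peaks past the 3′ ends of plk-2 and sun-1 were named after their values were seen. Of 54 pathway names 53 matched the annotation. Assignment was checked on planted summits. The alternatives are given in the closing section. Of the ce10 lists only the number of IDR-thresholded peaks was used. The software was numpy 2.4.6, pandas 2.3.3 and matplotlib 3.10.9 under Python 3.11.15.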

Additional observations from a re-analysis of the deposited data

How the results depend on the processing

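With the window narrowed to 200 bp before and 100 bp after a 5′ end, 3 of the 10 genes were bound (chk-2, pch-2 and prom-1) and 3.29% of all genes, since the summits of zim-1, sun-1, zyg-12 and plk-2 lie more than 300 bp upstream. The other alternatives gave 5 to 8 of the 10. Among the 921 strongest IDR-thresholded peaks it was 5, without pch-2 and zyg-12, and 3.7% of all genes. With 2 times as many pooled peaks (3682) it was 8, with zim-3 added, and 10.6% of all genes. With each summit given only to its nearest 5′ end it was 6 and 5.34% of all genes, since the zyg-12 summit passed to try-1. Leaving out replicate 2 gave 6 (6.67% of all genes) and leaving out replicate 1 gave 8 (6.37%), and him-8 and zim-2 were bound in none of the alternatives run. A list of 2189 pooled peaks, the size of the ce10 IDR-thresholded list, was added after seeing the data and gave 8 and 7.62% of all genes. The pathway list gave 12 of 53 bound where 3.7% of all genes were and 26 where 10.6% were, against 18 with 6.68%. At him-8 replicate 1 also had a summit nearby, but outside the window, 681 bp upstream (score 17, rank 5092). The summit of replicate 2 lay inside it, 380 bp upstream (score 14.9, rank 7192). Whether both mark the same peak was not tested. Depth is unknown and no untagged control list was used.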
